A study of Ambystoma mexicanum with 17 samples.

Results

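The circadian clock of vertebrate cells is a loop of transcription factors. CLOCK and BMAL1 pair on E-box sequences and switch on the PER, CRY and CIART genes, whose proteins then repress that same pair. NR1D1 closes a second loop by repressing BMAL1, and D-box factors such as DBP carry the rhythm to other genes. Many transcripts of the loop, though not all, have a level that depends on the time of day in a rhythmic tissue. The labels give no time of collection. Of the 9 clock genes listed for this account, 7 were in the count files (PER1, PER3, CRY1, CRY2, CIART, NR1D1 and CLOCK), out of 122775 gene IDs. PER2 and NR1D2 had no row by that symbol and were not analysed here. All 7 were among the 19398 genes with enough reads to be tested. They were picked by name with earlier results of these data known, from their levels over all 4 groups, so their values are given as a description without a test. The other genes of the clock were tested, but their list too was drawn up with earlier results of these data known. Their p-values are therefore not those of a list chosen without sight of the data.

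RNA came from forelimbs of axolotls of genotype d/d, and the same genotype ran through every group. In all, 5 libraries were of posterior blastemas treated with 25 uM U0126, which blocks the kinases that activate ERK. The untreated groups were 4 libraries of posterior blastemas, 5 of anterior blastemas and 3 of uninjured limb. A blastema is the mound of cells from which a limb regrows; here a nerve was deviated to induce it, and it was taken after 10 days together with the wound epithelium over it. For untreated tissue the labels mention DMSO and Holtfreter's solution without saying which blastemas had DMSO, so a vehicle effect cannot be told apart from the inhibitor's in these comparisons. Nothing in them ties each library to its own animal, and p-values therefore reflect only the variation among these samples, which may be technical. Libraries held 34181446 to 53856865 reads in genes.

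The libraries labelled uninjured replicate 1 and U0126 replicate 5 stood apart from their groups in the matrix genes TNC, FN1 and TGFBI. Their sum was 3371 CPM (reads per 1000000 after TMM scaling) in uninjured replicate 1, against 653 CPM in replicate 2 and 486 CPM in replicate 3. In U0126 replicate 5 the sum was 439 CPM, against 2011 to 3129 CPM in the other U0126 libraries. Each was close to another group in this sum. Uninjured replicate 1 lay inside the anterior range of 2547 to 4844 CPM, and U0126 replicate 5 was nearest to uninjured replicate 3. In uninjured replicate 1, however, PER1 (16 CPM) and CIART (43.6 CPM) were inside the U0126 ranges and above the anterior maxima of 4.55 and 25.8 CPM. CRY1 there (19.9 CPM) was inside the anterior range and above the U0126 maximum of 16.9 CPM. Its macrophage marker sum (428 CPM) lay between the U0126 maximum of 382 CPM and the anterior minimum of 548 CPM. Its muscle marker sum was 399 CPM, against 6934 and 14250 CPM in uninjured replicates 2 and 3. The reason was not tested. Values without both libraries are given beside the fold changes with U0126 of the 7 clock genes and of the called genes, beside the counts of signs, and beside the fold changes of single clock genes against uninjured limbs. In whole tissue, fewer cells of a type and less RNA per cell cannot be told apart.

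Posterior blastemas with U0126 had higher mean levels of all 7 clock genes than untreated posterior blastemas. Of the 27 other clock genes tested, the activator BMAL1, the output factor DBP and the kinase CSNK1A1 rose and 0 fell. That is 3 of 27, where edgeR called 8.12% of all genes in either direction. All 7 clock genes had a log2 fold change above 0, with a median of 1.97, and without both libraries again all 7 were above 0, with a median of 2.06. Of all 19398 genes, 9649 were above 0 and the median was −0.0022. PER1 alone of the 7 was past an adjusted p of 0.05 over all genes in edgeR's quasi-likelihood fit, where 4.13% of all genes were higher at that threshold. CIART was the 1 gene of the 7 whose U0126 libraries all lay above the posterior ones, which held for 6.25% of all genes in that direction. Since these values chose the genes, nothing is read from the counts. The count past the threshold was 0 without any 1 of posterior replicates 1 to 3 or U0126 replicates 1 to 3, 2 without posterior replicate 4 and 4 without U0126 replicate 4. Leaving out 1 library at a time called 127 to 2381 of all genes in this comparison, so calls over all genes shifted too. Without uninjured replicate 1 and U0126 replicate 5, PER1, CIART and NR1D1 (3) were past the threshold, where 2575 of all 19779 genes passed in either direction.

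PER1, a repressor that is also induced quickly by many signals, had 30.8, 8.47, 21.5, 8.01 and 1.29 CPM in U0126 replicates 1 to 5. Untreated blastemas had 0.524, 0.299, 0.608 and 1.68 CPM in posterior replicates 1 to 4. Of the 5 U0126 libraries, 4 were above every posterior library, and U0126 replicate 5 fell inside the posterior range. On the log2 scale the fold change was 4.16 ± 1.15 (SE), and 4.45 ± 0.92 (SE) without both libraries that stood apart. In anterior blastemas PER1 had 0.258, 0.634, 3.42, 1.82 and 4.55 CPM. Uninjured replicates 1 to 3 had 16, 0.519 and 2.26 CPM, so the library labelled uninjured replicate 1 held most of that group's PER1. The log2 fold change of PER1 in posterior over uninjured limbs was −3.0 ± 1.16 (SE) with it and −0.81 ± 1.0 (SE) without both libraries. For anterior over uninjured limbs it was −1.56 ± 1.04 (SE) with them and 0.62 ± 1.0 (SE) without them, a change of sign.

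PER3, the other period gene measured, was close to the detection limit. Its reads were 15, 6, 16, 11 and 1 in U0126 libraries and 4, 0, 3 and 1 in posterior libraries. The count of 0 in posterior replicate 2 allows up to 0.0816 CPM, taking 3 reads as the limit for counting error only. Anterior libraries had 3, 3, 11, 2 and 3 reads and uninjured libraries 26, 8 and 33. PER3 thus met the filter on low reads mostly through U0126 and uninjured libraries. Its being lower in posterior libraries is in part tied to that filter. As levels, uninjured limbs had 0.626, 0.198 and 0.900 CPM, above all 4 posterior libraries, which ran from 0 to 0.0839 CPM. One anterior library, replicate 3 at 0.209 CPM, lay just above the lowest uninjured library, so those groups overlapped. On the log2 scale the fold change was −3.59 ± 0.91 (SE) for posterior over uninjured and −2.66 ± 0.79 (SE) for anterior over uninjured limbs. Without both libraries these were −3.51 ± 0.89 (SE) and −2.59 ± 0.79 (SE), so PER3 kept its direction in both comparisons, while PER1 changed sign for anterior over uninjured limbs. With U0126 over untreated posterior blastemas PER3 differed by 2.25 ± 0.84 (SE) on the log2 scale, and by 2.52 ± 0.80 (SE) without both libraries.

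CRY1 and CRY2 encode cryptochromes, repressors of the CLOCK and BMAL1 pair, and their patterns differed. CRY1 was lowest in untreated posterior blastemas, at 7.09, 6.80, 3.46 and 3.16 CPM. Anterior blastemas had 15.0, 19.6, 13.8, 27.9 and 15.2 CPM, and uninjured limbs had 19.9, 22.8 and 16.4 CPM. The posterior libraries overlapped with neither group. U0126 libraries had 15.4, 10.4, 8.31, 4.06 and 16.9 CPM and overlapped with the other groups. Replicate 4 was inside the posterior range, replicates 1 and 5 were inside the anterior range, and replicate 5 was also inside the uninjured range. CRY1 had a log2 fold change of −1.94 ± 0.42 (SE) for posterior over uninjured limbs, −1.83 ± 0.38 (SE) for posterior over anterior blastemas and 1.10 ± 0.37 (SE) for U0126 over untreated posterior blastemas. These comparisons share the 4 posterior libraries. Without both libraries that stood apart CRY1 was at −1.93 ± 0.45 (SE) for posterior over uninjured limbs and 0.88 ± 0.39 (SE) with U0126. Anterior blastemas and uninjured limbs differed in CRY1 by −0.11 ± 0.39 (SE) on the log2 scale, and by −0.10 ± 0.45 (SE) without both.

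CRY2 was at 50.5, 54.6, 64.9, 6.11 and 28.1 CPM in U0126 libraries, against 6.94, 7.95, 7.09 and 19.8 CPM in posterior libraries. Here it was U0126 replicate 4 that lay below every posterior library. CRY2 thus had a log2 fold change of 1.97 ± 0.74 (SE), which was 2.06 ± 0.81 (SE) without both libraries that stood apart. Anterior libraries were split, with 4.56 and 4.18 CPM in replicates 1 and 2 and 13.0, 44.0 and 33.8 CPM in replicates 3 to 5. Uninjured libraries had 25.7, 13.9 and 19.6 CPM, inside the anterior range.

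CIART encodes a further repressor of the CLOCK and BMAL1 pair, known in mice as Chrono. It was at 65.9, 56.5, 59.8, 29.1 and 40.7 CPM in U0126 libraries and at 5.94, 6.78, 4.82 and 22.2 CPM in posterior libraries. The lowest U0126 library was above the highest posterior library, and the log2 fold change was 2.34 ± 0.71 (SE), or 2.40 ± 0.71 (SE) without both libraries that stood apart. Anterior libraries had 3.62, 2.99, 25.8, 16.3 and 20.9 CPM. Uninjured libraries had 43.6, 6.85 and 15.8 CPM, with replicate 1 again the highest. The log2 fold change of CIART in anterior over uninjured limbs was −0.67 ± 0.71 (SE), and 0.30 ± 0.81 (SE) without both libraries that stood apart.

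NR1D1, the nuclear receptor that represses BMAL1, ran from 0.938 to 4.33 CPM over all 17 libraries. U0126 libraries had 4.33, 2.61, 2.95, 2.35 and 1.26 CPM and posterior libraries 2.41, 1.44, 1.29 and 0.938 CPM, with overlap. On the log2 scale NR1D1 differed by 0.83 ± 0.35 (SE), and by 1.0 ± 0.29 (SE) without both libraries. Anterior libraries lay between 1.13 and 1.69 CPM and uninjured libraries between 1.46 and 2.82 CPM. CLOCK, the partner of BMAL1, was counted at 13 to 134 reads a library. It was at 3.14, 0.696, 0.803, 2.61 and 0.617 CPM in U0126 libraries, against 0.357, 0.517, 0.842 and 0.545 CPM in posterior libraries. Replicates 1 and 4 of the U0126 libraries were above the rest, as were anterior replicate 4 at 3.0 CPM and uninjured replicate 1 at 2.31 CPM. The log2 fold change of CLOCK with U0126 was 1.47 ± 0.79 (SE), and 1.67 ± 0.78 (SE) without both libraries.

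**Figure D1:**
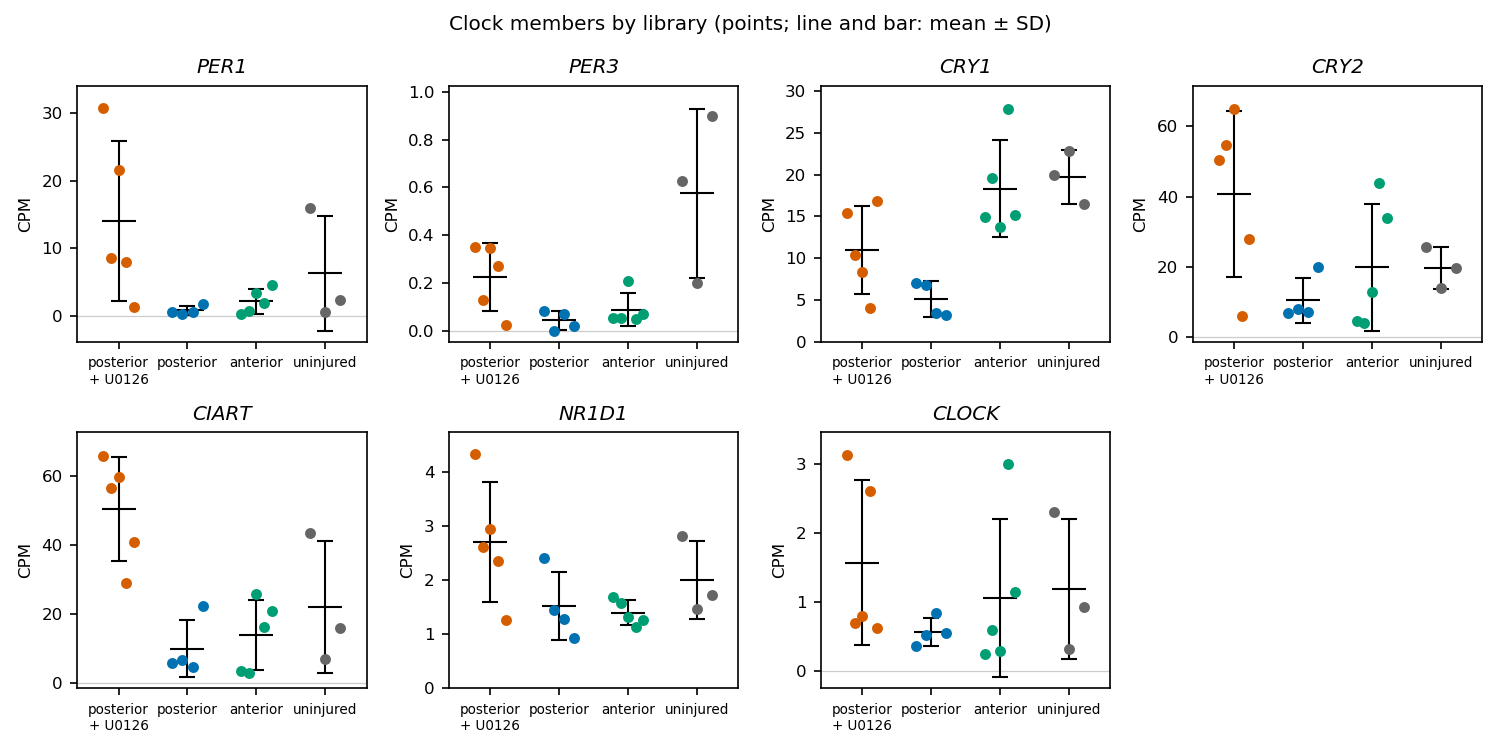
Level of each of the 7 clock genes (CPM, linear axis) in every library, as points, with the mean and SD of each group (5 U0126, 4 posterior, 5 anterior and 3 uninjured libraries). CIART in U0126 libraries (29.1 to 65.9 CPM) lies above all posterior libraries (4.82 to 22.2 CPM), and CRY1 in posterior libraries (3.16 to 7.09 CPM) lies below all anterior ones (13.8 to 27.9 CPM).

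By group mean, U0126 blastemas came highest in PER1, CRY2, CIART, NR1D1 and CLOCK, and uninjured limbs in PER3 and CRY1. Untreated posterior blastemas had the lowest mean in 6 of the 7 genes, the exception being NR1D1, which was lowest in anterior blastemas. PER1 averaged 14.0 ± 11.9 CPM in U0126 libraries (SD, n = 5), 0.778 ± 0.615 CPM in posterior (SD, n = 4), 2.13 ± 1.83 CPM in anterior (SD, n = 5) and 6.27 ± 8.49 CPM in uninjured libraries (SD, n = 3). CIART averaged 50.4 ± 15.1 CPM in U0126 libraries (SD, n = 5), 9.94 ± 8.23 CPM in posterior (SD, n = 4), 13.9 ± 10.2 CPM in anterior (SD, n = 5) and 22.1 ± 19.1 CPM in uninjured libraries (SD, n = 3). Without uninjured replicate 1 the uninjured means were 1.39 ± 1.23 CPM for PER1 and 11.3 ± 6.37 CPM for CIART (SD, n = 2 each), below the anterior means. In each of the 7 genes, groups next to each other in the order of means had intervals of mean ± SD that overlapped. Neighbours in these orders thus did not differ beyond their spread.

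Against uninjured limbs, posterior blastemas had a log2 fold change below 0 in all 7 genes, with a median of −1.15. Without both libraries that stood apart all 7 stayed below 0, but the median was −0.67, and CIART, NR1D1 and CLOCK were at −0.17 ± 0.82, −0.054 ± 0.36 and −0.12 ± 0.95 (SE), against −1.15 ± 0.75, −0.39 ± 0.39 and −1.07 ± 0.87 (SE) with all libraries. Across all genes 10043 of 19398 were below 0 and the median was −0.019. CRY1 was the 1 gene past the adjusted threshold, where 1.24% of all genes were lower, and the groups did not overlap in CRY1 and PER3 (2), which held for 7.72% of all genes in that direction. The count was 0 without any 1 of the 4 posterior libraries or uninjured replicate 2 or 3, and 2 without uninjured replicate 1. Over all genes, leaving out 1 library at a time called 0 to 1935. Without both libraries that stood apart the genes past the threshold were CRY1 and PER3 (2), where 3108 of all 19779 genes passed. The 7 genes were chosen from these levels, so nothing is read from their counts in this or the next comparisons. Anterior blastemas over uninjured limbs had 6 of 7 genes below 0, with a median of −0.52. Without both libraries the signs turned: 3 of 7 were below 0 and the median was 0.25, with PER1, CRY2, CIART and CLOCK above 0. With all libraries 0 of 7 were past edgeR's adjusted threshold or without overlap. At an unadjusted p under 0.05 by edgeR there was 1, where 4163 of all 19398 genes were. DESeq2 put 1, PER3, past an adjusted p of 0.05, where it called 1672 genes. The background was 0.206% of all genes past edgeR's adjusted threshold and 10.7% without overlap. Leaving out both libraries gave 1 by edgeR, PER3, where 4492 of all 19779 genes passed. Posterior over anterior blastemas had 6 of 7 below 0, with a median of −0.93, and 0 past edgeR's adjusted threshold, as against 0.00516% of all genes. At an unadjusted p under 0.05 by edgeR there was 1, where 1855 of all 19398 genes were. DESeq2 put 1, CRY1, past an adjusted p of 0.05, where it called 132 genes. CRY1 was the 1 gene without overlap, where 2.07% of all genes were lower in every posterior library.

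**Figure D2:**
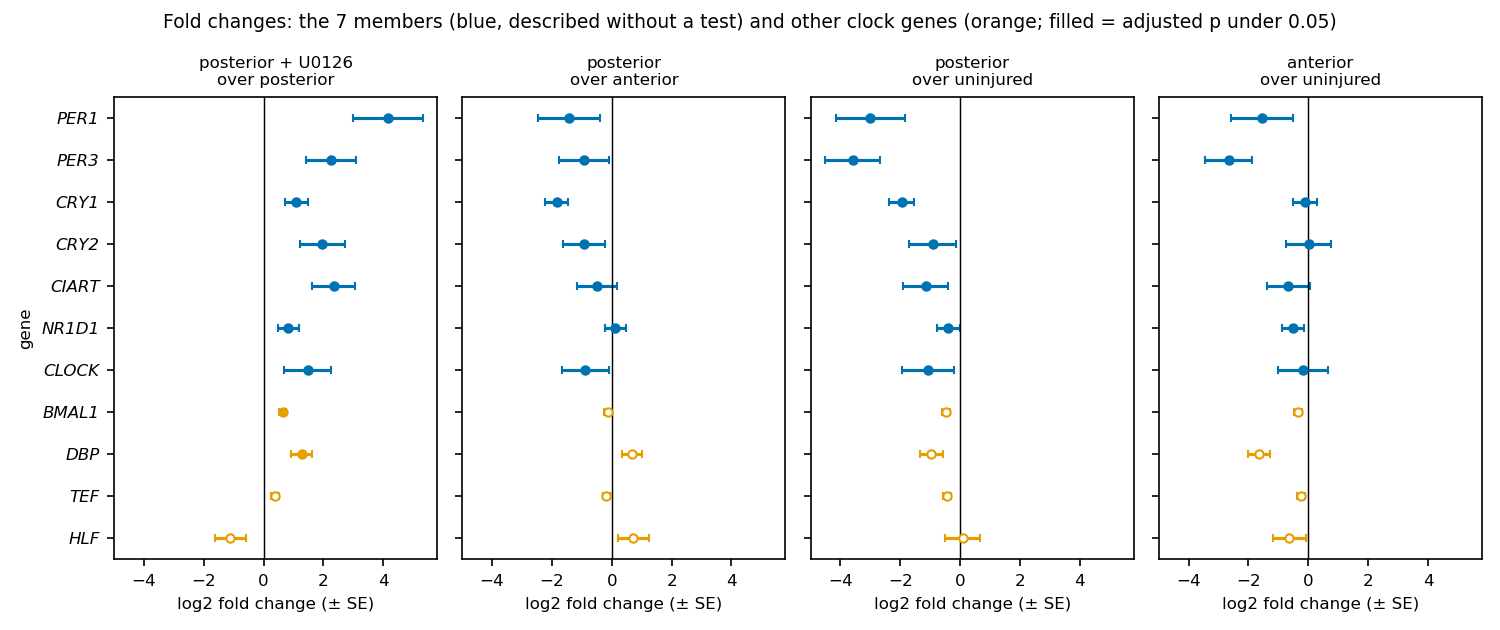
Log2 fold change with its SE (x axis) of the 7 clock genes, in blue and without a test, and of 4 other clock genes, in orange, in the 4 comparisons. Filled orange points, BMAL1 and DBP with U0126, passed an adjusted p of 0.05 over all genes. All 7 blue points are above 0 with U0126, from 0.83 for NR1D1 to 4.16 for PER1.

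The rest of the clock was examined through 39 symbols listed by role, of which 28 were in the files and 27 had enough reads to be tested. With U0126, 3 of the 27 rose and 0 fell in edgeR's quasi-likelihood test adjusted over all genes, which called 8.12% of all genes. At an unadjusted p under 0.05 by edgeR there were 7 of 27, 4 higher and 3 lower. Of all 19398 genes, 4832 were under it, so the 27 were near that share. By sign, 16 of the 27 had a log2 fold change above 0 and 11 below 0, with a median of 0.087. BMAL1, the partner of CLOCK, was at 26.2, 23.3, 28.5, 21.9 and 23.4 CPM in U0126 libraries, against 15.5, 17.6, 14.5 and 15.6 CPM in posterior libraries. It was higher in 5 of 5 U0126 libraries than in every posterior library, and it rose by 0.64 ± 0.12 (SE) on the log2 scale (adjusted p = 0.0123 by edgeR), or by 0.65 ± 0.12 (SE) without both libraries that stood apart. The call held in all 18 alternatives run for it, with an adjusted p up to 0.0494. DBP, an activator at D-boxes, was at 4.0, 3.44, 5.68, 2.74 and 2.49 CPM in U0126 libraries and 1.17, 1.42, 1.47 and 2.01 CPM in posterior libraries. The groups did not overlap, and DBP rose by 1.27 ± 0.35 (SE) on the log2 scale (edgeR adjusted p = 0.0387), or by 1.38 ± 0.37 (SE) without both. CSNK1A1, a casein kinase that phosphorylates PER proteins among many other targets, averaged 535 ± 46.4 CPM in U0126 libraries (SD, n = 5) and 400.3 ± 32.1 CPM in posterior libraries (SD, n = 4). It rose by 0.42 ± 0.12 (SE) on the log2 scale (edgeR adjusted p = 0.0446), or by 0.41 ± 0.11 (SE) without both. DBP passed in 11 of 18 alternatives and CSNK1A1 in 7 of 18. Leaving out any 1 of posterior replicates 1 to 3 or U0126 replicates 1 to 3 left 1 called gene of the 27, and leaving out U0126 replicate 4 gave 6. Over all genes, leaving out 1 library at a time called 127 to 2381.

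Of the other D-box factors, none passed the threshold with U0126 in edgeR's fit of all libraries. TEF was at 81.1 to 114 CPM in U0126 libraries and 66.2 to 72.3 CPM in posterior libraries, with no overlap. Its log2 fold change of 0.38 ± 0.12 (SE) missed the threshold in that fit (edgeR adjusted p = 0.0635). TEF passed without both libraries (edgeR adjusted p = 0.0376) and by DESeq2 (adjusted p = 0.035). HLF had a log2 fold change of −1.11 ± 0.52 (SE, edgeR adjusted p = 0.203). NFIL3, which represses at the same D-boxes, had 0, 0, 305, 90 and 123 reads in U0126 libraries and 97, 111, 87 and 1 reads in posterior libraries. Anterior libraries had 1, 161, 296, 120 and 278 reads of NFIL3 and uninjured libraries 270, 0 and 50. So NFIL3 had 0 or 1 read in 5 of the 17 libraries and 50 or more in the other libraries, in every group. NFIL3 differed by 0.43 ± 1.55 (SE) on the log2 scale with U0126 (edgeR adjusted p = 0.905). RORA, which activates BMAL1, differed by 0.03 ± 0.43 (SE). The E-box repressors BHLHE40 and BHLHE41 differed by 0.17 ± 0.31 and −1.05 ± 0.59 (SE), and neither passed. Whether these changes differ from that of DBP was not tested.

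Against uninjured limbs, 0 of the 27 other clock genes passed edgeR's test in either blastema, where 0.206% of all genes passed in anterior and 2.10% in posterior blastemas. At an unadjusted p under 0.05 by edgeR there were 7 of 27 in anterior and 6 of 27 in posterior blastemas. Of all 19398 genes, 4163 and 4125 were under it. DESeq2 called 3 and 4 of the 27, and 1672 and 1948 of all genes. Without uninjured replicate 1 alone, 8 of the 27 were called in anterior and 2 in posterior blastemas. Leaving out 1 library at a time called at most 3675 and 1935 of all genes in those comparisons. Without both libraries that stood apart 4 of the 27 were called in posterior blastemas, TEF lower and CIPC, TIMELESS and NOCT higher. In that fit 3108 of all 19779 genes were called. DBP was at 0.478, 0.561, 0.931, 1.48 and 1.34 CPM in anterior libraries, against 3.13, 2.35 and 3.44 CPM in uninjured libraries. The groups did not overlap, the log2 fold change was −1.64 ± 0.36 (SE), and the adjusted p by edgeR was 0.0545. Without both libraries that stood apart the log2 fold change of DBP was −1.60 ± 0.41 (SE) and the adjusted p by edgeR 0.0151. In that fit 8 of the 27 genes were called in anterior blastemas, where 4492 of all 19779 genes were. They were DBP and TEF lower and CSNK1D, CSNK1E, FBXW11, TIMELESS, TIPIN and NOCT higher. NOCT, a gene chosen here after its values were seen and whose RNA is known to cycle in mouse tissues, was at 2.04 to 3.21 CPM in anterior libraries and 0.643 to 1.04 CPM in uninjured libraries. BMAL1 in posterior blastemas was at 14.5 to 17.6 CPM, against 19.1 to 24.1 CPM in uninjured limbs, with a log2 fold change of −0.47 ± 0.13 (SE, edgeR adjusted p = 0.0677). Without both libraries that fold change was −0.38 ± 0.15 (SE, edgeR adjusted p = 0.0978). Posterior and anterior blastemas differed in 0 of the 27 by edgeR, with 2 at an unadjusted p under 0.05, where 1855 of all 19398 genes were. DESeq2 called 0 of the 27 at an adjusted p of 0.05.

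**Figure D3:**
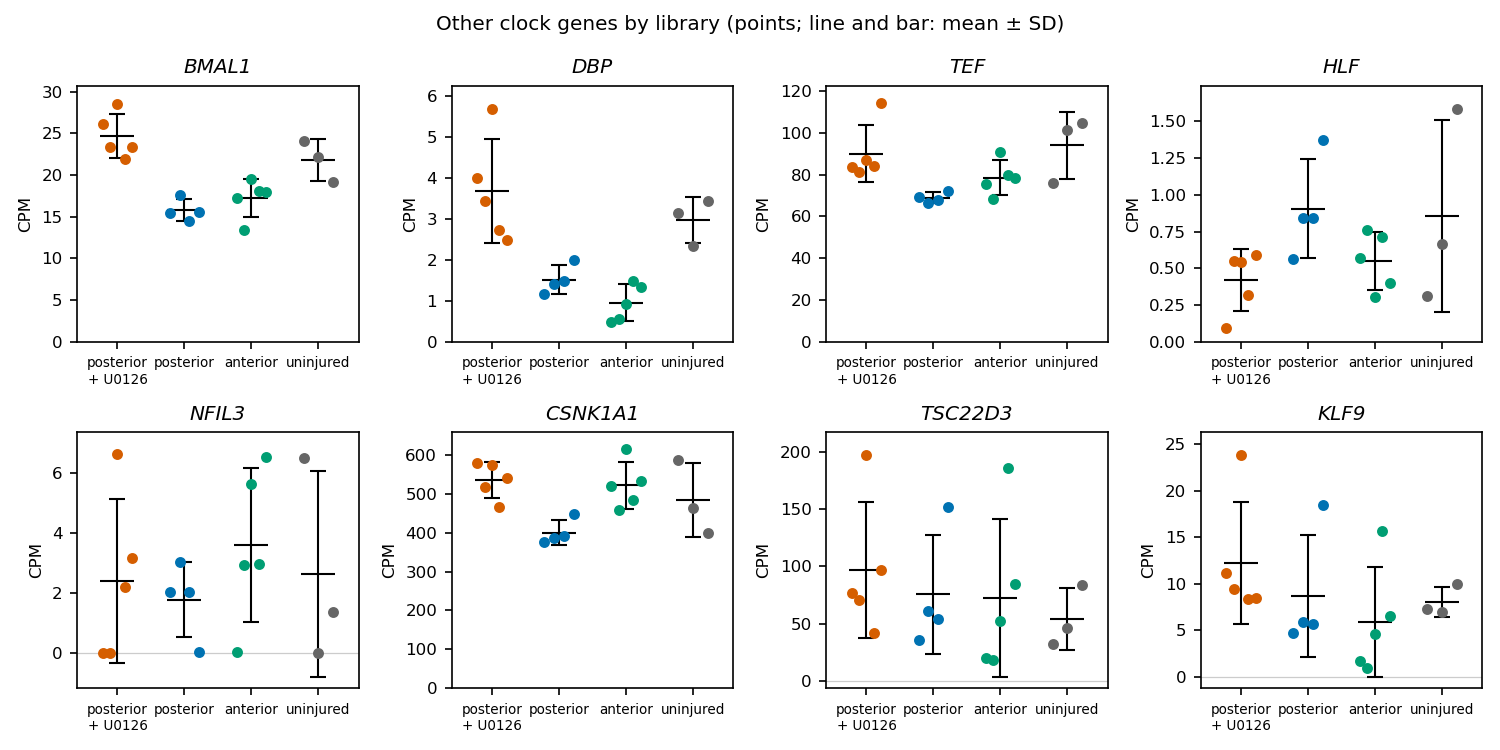
Level of 8 other clock genes (CPM, linear axis) in every library, as points, with the mean and SD of each group. BMAL1 in U0126 libraries (21.9 to 28.5 CPM) lies above all posterior libraries (14.5 to 17.6 CPM), and NFIL3 is at or near 0 in 5 libraries spread over all groups.

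Libraries of 1 group differed widely in several clock genes, and some of these genes tended to go up and down together, though not in every group. PER1, CRY2 and CIART were each highest in replicate 4 among the posterior libraries, as were DBP, TSC22D3 and KLF9. TSC22D3 and KLF9, transcription regulators induced by glucocorticoids and rhythmic in many mouse tissues, were picked for this after their values were seen. KLF9 was at 18.5 CPM in posterior replicate 4, against 4.76 to 5.90 CPM in the other posterior libraries. TSC22D3 was at 152 CPM there, against 35.7 to 60.9 CPM. In anterior libraries CRY2, DBP, KLF9 and TSC22D3 were all highest in replicate 4. The genes did not all share their highest library. NR1D1 and CRY1 were lowest in posterior replicate 4. In anterior libraries PER1 was highest in replicate 5 and CIART in replicate 3. Among U0126 libraries PER1 and CIART were highest in replicate 1, and CRY2, DBP, KLF9 and TSC22D3 in replicate 3. Within the uninjured group PER1, CRY2, CIART, NR1D1 and CLOCK were highest in replicate 1, whereas DBP, KLF9 and TSC22D3 were highest in replicate 3.

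As a description over the 17 libraries, log2 CPM of PER1 and CIART had a Pearson r of 0.89 and a Spearman rho of 0.87. With group means taken out r was 0.80, and without the 2 libraries farthest from the median of PER1 it was 0.86. For CRY2 and CIART r was 0.82, and 0.76 within groups. For CRY2 and KLF9 r was 0.77, and 0.81 within groups. All 15 pairs among PER1, CRY2, CIART, DBP, KLF9 and TSC22D3 had r above 0, from 0.38 to 0.89, and from 0.35 to 0.94 within groups. Over the 15 libraries without both that stood apart, these pairs ran from 0.53 to 0.94, with r of 0.94 for PER1 and CIART, 0.82 for CRY2 and CIART and 0.77 for CRY2 and KLF9. Of the other clock genes, CRY1, NR1D1 and PER3 did not follow all of these 6 closely. CRY1 had r of 0.037 to 0.28 with the other 6 clock genes and −0.42 to 0.33 within groups. Within groups NR1D1 had r of −0.085 with CRY2, −0.032 with CIART, −0.052 with DBP, −0.29 with KLF9 and −0.44 with TSC22D3, though 0.40 with PER1. PER3 had r within groups of 0.033 with CRY2 and −0.017 with TSC22D3, though 0.66 with PER1. BMAL1 and CLOCK had r above 0 with all 6. For BMAL1 r ran from 0.35 with TSC22D3 to 0.81 with CIART, and from 0.41 to 0.60 with the same genes within groups. For CLOCK it ran from 0.31 with TSC22D3 to 0.66 with PER1, and from 0.27 to 0.57 within groups. These values overlap with those among the 6, so the 6 are not set apart from BMAL1 and CLOCK. Over the 17 libraries TEF and BHLHE40 also had r above 0 with all 6. Within groups BHLHE40 had r of 0.32 to 0.60 with them. TEF had r within groups of −0.39 with PER1 and 0.017 to 0.41 with the rest. BHLHE41 had r below 0 with all 6, from −0.52 with CRY2 to −0.14 with PER1. Within groups the sign turned with PER1 (0.40) and DBP (0.017), and the rest ran from −0.33 to −0.038. HLF ran from −0.61 with PER1 to 0.17 with TSC22D3, and RORA from −0.23 with PER1 to 0.34 with TSC22D3. NFIL3 ran from −0.080 with DBP to 0.070 with PER1. No p is given, since the pairs were chosen with the values known, and the libraries of each group share a treatment and all share the scaling.

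**Figure D4:**
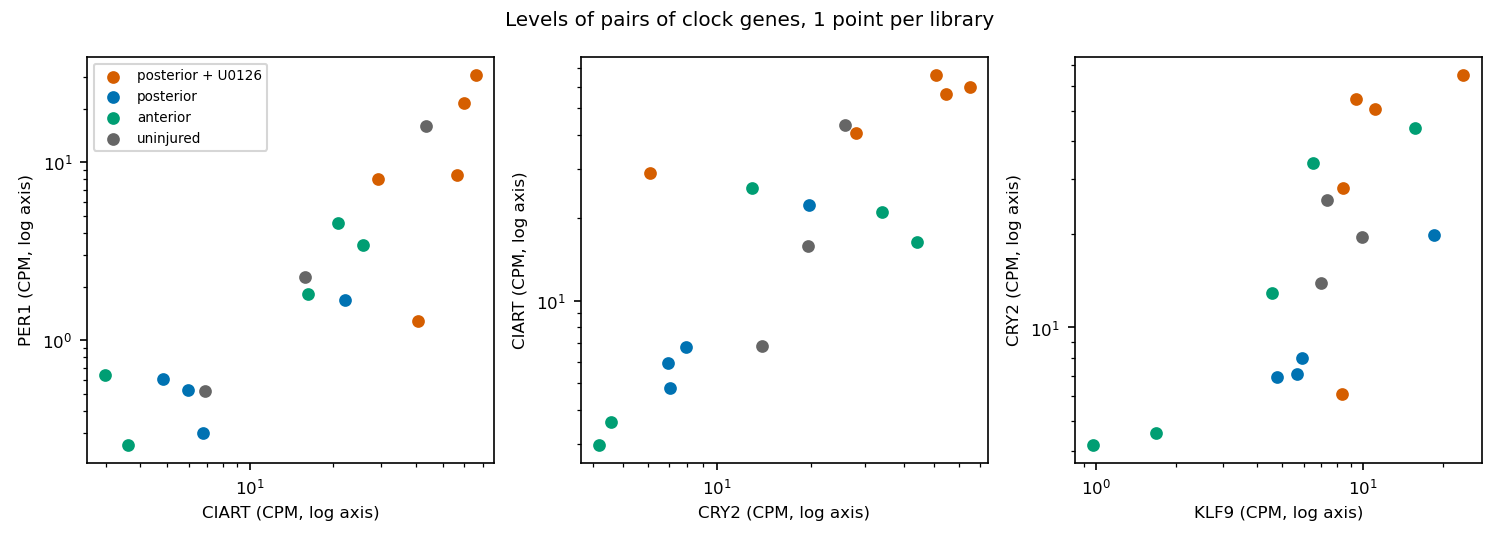
Levels of PER1 against CIART, CIART against CRY2 and CRY2 against KLF9 (CPM, log axes), 1 point per library, coloured by group. The points tend to run from low to high together in each panel (r over 17 libraries of 0.89, 0.82 and 0.77 on log2 CPM). With group means taken out r is 0.80, 0.76 and 0.81, though not every group shows it. Among posterior replicates 1 to 3 CIART is highest where PER1 is lowest.

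Among all genes with a symbol, those most like each clock gene over the 17 libraries were found by Pearson r of log2 CPM. For PER1 they were SLC24A5 (r = 0.94), SELENOO (0.92) and TRIP12 (0.89). CRY2 was closest to TUFT1 (0.94), TFCP2L1 (0.94) and LURAP1L (0.91), and CIART to APMAP (0.93), SYT7 (0.93) and ENOPH1 (0.92). For NR1D1 the genes were ZBTB48 (0.90), PPP1R10 (0.89) and COX10 (0.87), and for PER3 they were IL17RC (0.85), DNAJC3 (0.82) and RUBCN (0.81). CRY1 and CLOCK had less close matches, A4GALT (0.78), DHRS3 (0.77) and HOXC8 (0.73) for CRY1 and ATXN7 (0.79), DYNLT4 (0.75) and EGLN3 (0.72) for CLOCK. Each r is the highest found in a search of all these genes and only describes these libraries.

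Markers of tissue makeup moved with the U0126 comparison too. The 8 connective tissue markers, all in the files, summed to 4621 to 12838 CPM in U0126 libraries and 16110 to 25251 CPM in posterior libraries. COL1A1, COL1A2 and COL3A1 gave most of this sum in each of these libraries. Singly, COL1A1, COL1A2, PRRX1 and TWIST1 overlapped between the 2 groups. PRRX2, COL3A1, COL6A1 and PDGFRA were lower with U0126 without overlap, which held for 6.02% of all genes in that direction. The 5 macrophage markers summed to 220 to 382 CPM and 492 to 916 CPM in the same groups. C1QA, C1QB, C1QC and CSF1R were lower with U0126 without overlap, beside the same 6.02% of all genes, and MARCO overlapped. Skeletal muscle markers in the files (4 of 8) summed to 268 to 6489 CPM in U0126 and 773 to 6798 CPM in posterior libraries. The 5 of 9 epidermis markers in the files summed to 642 to 1127 CPM and 719 to 1159 CPM, a sum to which EPCAM gave the most in every posterior and U0126 library. Single epidermis markers differed in direction. KRT18 was at 41.9 to 195 CPM in U0126 and 204 to 276 CPM in posterior libraries, lower without overlap (6.02% of all genes). GRHL1 was at 69.7 to 132 CPM in U0126 and 42.8 to 49.2 CPM in posterior libraries, higher without overlap (6.25% of all genes). EPCAM, TP63 and GRHL3 overlapped between the 2 groups. The 3 wound matrix markers summed to 439 to 3129 CPM in U0126 and 3754 to 4753 CPM in posterior libraries. No marker in the files was at 0 in any library. Within groups, the epidermis sum was 910, 877, 1156, 1029 and 1197 CPM in anterior replicates 1 to 5. PER1, CRY2 and CIART were lowest in anterior replicates 1 and 2. The sum was 1159 CPM in posterior replicate 4, where these genes were highest, against 719 to 790 CPM in the others. In U0126 libraries it was lowest in replicate 3, where CRY2 was highest. In uninjured libraries it was lowest in replicate 1, where these genes were highest. The part of tissue makeup in the clock gene values was not tested.

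Reads of the 7 clock genes lay on the second strand in 59.6% (PER3) to 72.6% (NR1D1) of cases, near the 67.0% of all genes. In the RefSeq table the span of an RNA gene not coding for protein overlaps that of NR1D1, and another overlaps that of CLOCK. Unstranded reads that lie on both genes of a pair are set aside as ambiguous and were not used, so counts may miss them. Whether exons overlap was not examined.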

How the data were processed

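Polyadenylated RNA of 17 forelimb libraries was sequenced. The tools named are Trimmomatic 0.39 and STAR 2.7.3a, per the submitters' processing notes. Which genome build was used is not given in the sources used here. The deposited files hold raw read counts per gene made by the authors, unstranded and for each strand. The unstranded counts were used, without the 4 totals outside genes (14.2% to 16.4% of reads). Gene names were checked against a RefSeq table (assembly UKY_AmexF1_1), in which all 7 clock genes were found; no sequences were at hand.

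Genes were filtered with filterByExpr, scaled by TMM, with factors of 0.862 to 1.08, then fitted in 1 model of 4 groups by the robust quasi-likelihood method of edgeR 4.0.16 (R 4.3.3), with Benjamini-Hochberg adjustment over 19398 genes and a threshold of 0.05. An SE is the size of the log2 change over the root of its F statistic. CPM use the TMM-scaled totals. Correlations used log2 CPM with a prior count of 2. Tests were checked on simulated counts. No 2 libraries of a group were alike within counting error (chi-square over its degrees of freedom at least 64.6).

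The clock genes, the other clock list, the markers and the rule for named genes (every called gene of the list, a fixed set of core factors, and the 3 genes most like each clock gene) were chosen with earlier results of these data known. Alternatives were RLE and total-count scaling, 2 other filters, second-strand counts, only the 2 groups compared, replicate number as a block, DESeq2 1.42.0, and leaving out libraries. Deviations of same-numbered libraries had correlations of −0.243 to 0.304. For replicate 1 they were positive in every comparison. The values were 0.304 (anterior over uninjured), 0.257 (posterior over uninjured), 0.240 (posterior over anterior) and 0.156 (U0126 over posterior). The negative values were −0.243 and −0.0822 for anterior over uninjured limbs and −0.0557 and −0.228 for U0126 over posterior blastemas. These values do not settle whether libraries are paired, and the main fit used no pairing. Library names of anterior and uninjured replicates 1 to 3 share a number whose meaning the labels do not give. Figures were drawn with matplotlib 3.10.9.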

Additional observations from a re-analysis of the deposited data

Results flagged for a closer look

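Of 48 gene and group combinations examined, 5 held a value that lay apart from their group by Dixon's test of the gap to the nearest library, which chance does for about 1 in 20 groups. The 48 combinations of 16 genes do not cover all 4 groups of each gene, so a library not flagged may not have been examined. CIART was at 22.2 CPM in posterior replicate 4, against 6.78 CPM in the next library, and CRY2 was at 19.8 CPM in the same library, against 7.95 CPM. PER3 was at 0.209 CPM in anterior replicate 3, against 0.0703 CPM. TEF was at 114 CPM in U0126 replicate 5, one of the libraries that stood apart, against 86.9 CPM. BHLHE41 was at 1.20 CPM in U0126 replicate 4, against 0.358 CPM.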

How the results depend on the processing

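Among the 7 clock genes PER3 had the fewest reads, and 3 uninjured libraries limit every comparison with uninjured limbs. PER3, BMAL2 and RORB stayed below 1 CPM in every library, so the fit with the stricter filter left them out. PER3 was in 14 of 18 alternatives for anterior and 13 of 16 for posterior over uninjured limbs. It was in 15 of 18 in each other comparison. Counts of the 7 or the 27 in such fits cover fewer genes. Counts of the 7 describe genes chosen from these values. Of the 7 clock genes, the count past the threshold with U0126 was 1; it was 0 with no filter, 2 with the stricter filter, 2 with only the 2 groups, 4 with DESeq2 and 3 without both libraries that stood apart. For posterior over uninjured limbs it was 1, then 2 with RLE scaling, 0 with only the 2 groups, 0 with the replicate block, 3 with DESeq2 and 2 without both libraries. It was 0 and became 1 with DESeq2 for anterior over uninjured limbs and for posterior over anterior blastemas, and 1 for anterior over uninjured limbs without both libraries. Of the 27 other clock genes, 3 were called with U0126, 1 with the replicate block and 5 with DESeq2. The 5 were BMAL1, DBP, CSNK1A1 and TEF higher and CIPC lower, where DESeq2 called 2903 of all genes. For anterior over uninjured limbs 0 were called, 2 with the stricter filter, 3 with DESeq2 and 8 without both libraries. For posterior over uninjured limbs the count was 0, then 4 with DESeq2 and 4 without both libraries. The fit of anterior and uninjured libraries alone with the block called 0 of either. The cause of these shifts was not tested.

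Leaving out 1 library at a time gave 0 to 4 of the 7 and 1 to 6 of the 27 with U0126, 0 to 2 of each for posterior over uninjured limbs (with 2 and 2 without uninjured replicate 1), 0 of the 7 and 0 to 8 of the 27 for anterior over uninjured limbs (8 without uninjured replicate 1) and 0 of either for posterior over anterior blastemas. The calls of the 7 with U0126 were 0 without any 1 of posterior replicates 1 to 3 or U0126 replicates 1 to 3. Over all genes the counts ran from 127 to 2381 with U0126 and from 0 to 1935 for posterior over uninjured limbs. They ran from 0 to 3675 for anterior over uninjured limbs and were 0 throughout for posterior over anterior blastemas.

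Of the 7 clock genes, sign changes over 18 alternatives for anterior over uninjured limbs came to 8 for CRY2 (log2 fold change −1.62 to 0.27), 5 for CLOCK (−1.42 to 0.76), and 2 each for PER1 (−2.10 to 0.62), CIART (−1.34 to 0.30) and CRY1 (−0.31 to 0.016); NR1D1 had 2 for posterior over anterior blastemas (−0.19 to 0.30). Other clock genes that missed the threshold changed sign as follows. RORA with U0126 became −0.056 with total-count scaling, −0.0030 with second-strand counts and −0.010 with the replicate block, and RORA in posterior over anterior blastemas −0.054 with the block. NFIL3 became −0.043 in anterior over uninjured limbs and −0.45 with U0126 under the block, and 1.41 in posterior over uninjured limbs without both libraries. HLF in posterior over uninjured limbs became −0.35 with second-strand counts and −0.29 without both libraries. Leaving out 1 library gave −0.44 to 0.25 for RORA, −0.41 to 0.81 for NFIL3 and −0.20 to 0.33 for BHLHE40 with U0126. In posterior over anterior blastemas the range was −0.19 to 0.045 for BHLHE40 and −0.083 to 0.22 for RORA. In posterior over uninjured limbs it was −0.31 to 0.89 for HLF and −1.15 to 1.39 for NFIL3. In anterior over uninjured limbs it was −0.0041 to 0.27 for CSNK1A1, −1.03 to 0.16 for HLF, −0.13 to 2.41 for NFIL3 and −0.31 to 0.43 for BHLHE41.

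Total-count scaling moved the median of all genes to 0.12 in anterior and 0.14 in posterior over uninjured limbs (log2). Counts over all genes ran from 8 to 4492, 0 to 3108, 0 to 132 and 947 to 2903 in the 4 comparisons (anterior over uninjured, posterior over uninjured, posterior over anterior, U0126 over posterior) under the alternatives other than leaving out 1 library.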
